A study of Homo sapiens with 12 samples.

Results

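The genes described here are 37 genes of sterol and fatty acid synthesis and transport, followed across 12 RNA-seq libraries of MDA-MB-231 cells, an established human line from a triple-negative breast cancer. They were taken by symbol from the 60664 genes of the count table, from a list drawn up with earlier results of these data known, and each symbol was found on 1 row. By role they are 7 enzymes from HMG-CoA to squalene, 10 enzymes from squalene to cholesterol, 5 SREBP regulators, 8 genes of fatty acid synthesis, 3 targets of the liver X receptors (LXR) and 4 sterol carriers.

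The study asked which transcripts change under hypoxia and after loss of CCAR2, the gene of the nuclear protein DBC1. The 3 groups were wildtype (WT) cells that were not treated (WT normoxia), WT cells after 24 hr of hypoxia (WT hypoxia), and untreated cells with the genotype CCAR2-/- (CCAR2 KO), with 4 libraries each. The 12 libraries hold no group that combines the knockout with hypoxia. The knockout cells were made with a lentiviral LentiCRISPR vector, and neither the labels nor the methods say whether they were 1 clone, so a change in KO cells cannot be told apart from a change in the line that was kept. The methods describe biological replicates, but the replicate numbers they give differ from the number of libraries per group here, and the labels do not tie libraries to separate cultures. The p-values measure the spread between these libraries, which may in part be technical.

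Cells make cholesterol from acetyl-CoA through mevalonate and squalene, and the enzymes from squalene to cholesterol include several that consume molecular oxygen. When sterols in the endoplasmic reticulum are low, SCAP carries the SREBP transcription factors (from SREBF1 and SREBF2) to the Golgi for cleavage, and the released factors switch on sterol and fatty acid genes. INSIG1 and INSIG2 hold SCAP back when sterols are high, while oxidized sterols activate LXR, which switches on the exporters ABCA1 and ABCG1, the LDL receptor ligase MYLIP and SREBF1 itself.

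The sum of the deposited counts per library was between 153904088 and 213743693 in WT normoxia, between 76384973 and 195621872 in WT hypoxia and between 68599412 and 152328450 in CCAR2 KO. CPM are counts scaled to the library sum times a factor from edgeR's TMM normalization. This factor was between 0.958 and 1.04 in the 12 libraries. The 6 genes listed as abundant in MDA-MB-231 (such as VIM and CD44) summed to between 8455 and 9632 CPM in the 12 libraries. The 5 luminal genes listed as low (such as ESR1) summed to between 6.07 and 10.2 CPM. CCAR2 was at 149 ± 2.19 CPM in WT normoxia, 148 ± 5.72 CPM in WT hypoxia and 57.2 ± 2.74 CPM in KO cells (mean ± SD, n = 4 each), so its transcript was lower in every KO library but still present. CA9, a classical hypoxia-induced gene, was at 0.0661 ± 0.0237 CPM in WT normoxia and 4.86 ± 0.375 CPM in hypoxia. The 8 listed fibroblast, leukocyte and endothelial genes summed to between 3.70 and 4.90 CPM in WT normoxia, 4.67 and 5.97 CPM in hypoxia and 6.91 and 8.14 CPM in KO cells. In KO cells 3 of the 4 that could be tested (PECAM1, CD14 and PDGFRB) were called higher, where 6.73% of all genes tested were. The fourth, PTPRC, was at -1.59 ± 0.57 (edgeR adjusted p = 0.0523), with 0.176 to 0.238 CPM in WT normoxia and 0 to 0.0964 CPM in KO cells. In KO cells CD3E and DCN were at 0 and CDH5 was at 0.0156 CPM on average, and the part of these genes in the results below was not tested.

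To show the regulatory sequence beside the values, the 250 bases upstream of the start site are given for 6 of the 10 members called in any comparison and for SREBF2, which was not called, from the RefSeq promoter table (build GRCh38.p14), which held 32 of the 37 members. Capitals mark the NF-Y box CCAAT, the sterol regulatory element TCACNCCAC and the E-box CACGTG on either strand. SREBP and its partners are known to read these boxes in sterol genes. ABCA1 and MYLIP are listed as LXR targets, and their matches are matches to letters alone. In INSIG2 capitals mark instead the hypoxia response core (ACGTG or GCGTG, on either strand), with 2 matches. This core is not marked as such elsewhere, but the windows of IDI1 (2), SCD (1) and SREBF2 (1) also held it. ABCA1 held it only within its marked E-box, which matches the core on both strands. HMGCS1 and MYLIP held none. HMGCS1 and IDI1 are shown as the sterol enzymes with the lowest log2 fold changes in KO cells.
HMGCS1, chr5:43313413-43313662, minus strand: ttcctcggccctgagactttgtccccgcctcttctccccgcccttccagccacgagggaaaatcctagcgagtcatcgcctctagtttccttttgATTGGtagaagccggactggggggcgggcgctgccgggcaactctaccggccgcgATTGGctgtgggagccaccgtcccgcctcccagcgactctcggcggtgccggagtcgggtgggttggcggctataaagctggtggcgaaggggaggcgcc
IDI1, chr10:1049120-1049369, minus strand: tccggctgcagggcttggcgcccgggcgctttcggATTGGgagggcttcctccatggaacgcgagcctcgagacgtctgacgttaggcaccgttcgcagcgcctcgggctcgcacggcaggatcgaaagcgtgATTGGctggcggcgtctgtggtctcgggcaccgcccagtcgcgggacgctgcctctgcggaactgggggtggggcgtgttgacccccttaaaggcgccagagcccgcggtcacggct
Both upstream windows held 2 NF-Y boxes and no match to the sterol element as spelled here. CYP51A1, also called lower in KO cells, is not shown, and its upstream window held no NF-Y box, sterol element or E-box. SREBF2 is shown as the member that held the sterol element.
SREBF2, chr22:41832855-41833104, plus strand: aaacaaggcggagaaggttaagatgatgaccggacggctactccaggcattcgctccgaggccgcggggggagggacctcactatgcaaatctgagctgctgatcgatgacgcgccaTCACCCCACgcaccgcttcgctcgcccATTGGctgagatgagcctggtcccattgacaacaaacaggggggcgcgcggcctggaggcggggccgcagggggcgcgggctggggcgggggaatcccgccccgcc
ABCA1, MYLIP and SCD were called higher in KO cells.
ABCA1, chr9:104928156-104928405, minus strand: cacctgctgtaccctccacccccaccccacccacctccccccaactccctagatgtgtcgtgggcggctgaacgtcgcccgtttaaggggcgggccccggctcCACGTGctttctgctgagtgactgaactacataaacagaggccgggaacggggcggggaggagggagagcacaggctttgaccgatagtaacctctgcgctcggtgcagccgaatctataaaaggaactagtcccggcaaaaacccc
MYLIP, chr6:16128836-16129085, plus strand: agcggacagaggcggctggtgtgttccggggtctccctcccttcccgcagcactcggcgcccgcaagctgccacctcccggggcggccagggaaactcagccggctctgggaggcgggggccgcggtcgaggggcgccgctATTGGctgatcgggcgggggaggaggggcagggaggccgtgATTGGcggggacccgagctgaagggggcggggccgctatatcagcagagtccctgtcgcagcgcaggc
SCD, chr10:100346983-100347232, plus strand: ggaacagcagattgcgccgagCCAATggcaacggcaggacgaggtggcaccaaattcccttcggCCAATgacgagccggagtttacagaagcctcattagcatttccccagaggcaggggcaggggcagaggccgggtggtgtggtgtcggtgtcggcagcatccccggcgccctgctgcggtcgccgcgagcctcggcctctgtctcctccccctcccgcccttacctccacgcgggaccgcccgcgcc
INSIG2 was called higher in hypoxia.
INSIG2, chr2:118088221-118088470, plus strand: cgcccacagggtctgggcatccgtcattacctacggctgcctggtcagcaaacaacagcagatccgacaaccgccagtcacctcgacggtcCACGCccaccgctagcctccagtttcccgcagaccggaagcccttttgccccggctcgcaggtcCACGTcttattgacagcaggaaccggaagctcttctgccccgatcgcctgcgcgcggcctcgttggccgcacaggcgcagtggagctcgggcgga
Over the whole 300-base window of the table, the NF-Y box was found in 23 of 32 members and in 39.7% of all 27305 genes in the table. The sterol element was found in SREBF2 alone and in 1.39% of all genes, the E-box in 5 members (ABCA1, INSIG1, LSS, SC5D and SCAP) and in 8.77%, and the hypoxia core, which every E-box also contains, in 26 members and in 52.4%. The LXR element spelled as AGGTCA repeated after 4 bases (DR4) was found in no member and in 0.0256% of genes. A match to letters is not a measured binding site, and a missing match covers only this window.

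Each pair of groups was compared with edgeR's quasi-likelihood test fitted on all genes, and a gene was called at a Benjamini-Hochberg adjusted p-value under 0.05 when its log2 fold change was also 0.5 or more in size. CPM are scaled over the 12 libraries together and each fit over its own 8, so the ratio of 2 printed means can differ slightly from the fitted fold. With 4 libraries against 4, an exact permutation test on log2 CPM cannot go below 0.0286, and it gave that value for each of the 10 members in each comparison that called them. Groups that do not overlap always give that value, so it is not separate support for calls made on the same libraries. In these bulk libraries fewer expressing cells and less RNA per cell cannot be told apart.

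Of the 17 enzymes of sterol synthesis 14 were lower in KO cells by the adjusted p-value, SREBF1, SCD and the LXR targets ABCA1 and MYLIP were higher, and the sterol carrier GRAMD1B was higher by far more than any other member. Of 36 members tested against WT normoxia, 5 were called higher, where 6.73% of the 21410 genes tested were, and 3 were called lower, where 2.94% of all genes were (9.67% in either direction). By the adjusted p-value alone, 5 members were higher and 18 lower, against 14.9% and 15.4% of all genes. The median log2 fold change was -0.10 over the members and 0.01 over all genes.

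After 24 hr of hypoxia few members moved past the fold threshold. INSIG2 was the only member called in WT hypoxia against WT normoxia, higher, where 5.83% of the 21776 genes tested were called higher, and 0 of 36 members were called lower, where 1.43% were (7.26% in either direction). By the adjusted p-value alone, 4 members were higher (INSIG2, ACSS2, FADS2 and GRAMD1C) and 7 lower (HMGCS1, IDI1, SQLE, CYP51A1, SC5D, ELOVL6 and STARD4), against 11.6% and 12% of all genes. The median was -0.03 over the members and 0.01 over all genes. The KO and hypoxia comparisons share their 4 WT normoxia libraries, so their values are not independent of each other. No member was called in both, and 27 of the 37 were called in none of the 3 comparisons made here.

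**Figure D1:**
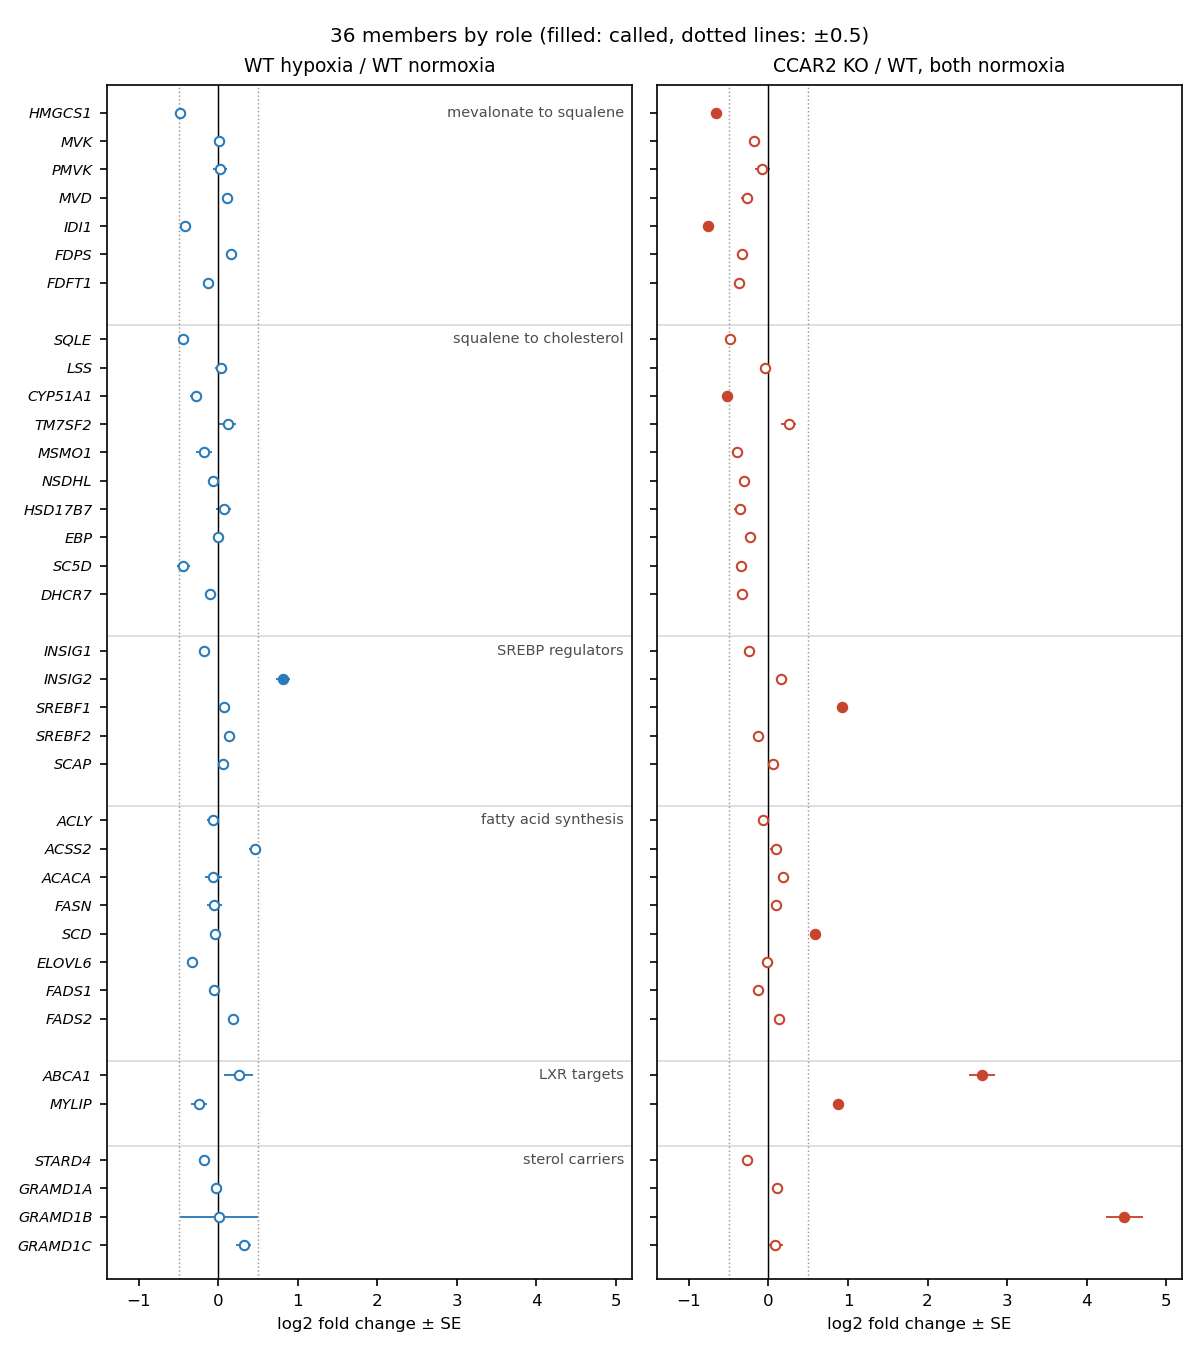
Log2 fold change with its standard error (x axis) of the 36 members tested, ordered by role, in WT hypoxia (left, blue) and CCAR2 KO (right, red) against WT normoxia; filled points were called and dotted lines mark a log2 fold change of 0.5 in either direction. On the right 16 of 17 sterol enzymes lie below 0 and GRAMD1B lies at 4.48, while on the left INSIG2 is the only filled point.

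The 17 enzymes of sterol synthesis were summed in each library to show the size of the shift. Their sum was between 1584 and 1665 CPM in WT normoxia, between 1412 and 1553 CPM in hypoxia and between 1206 and 1238 CPM in KO cells. The 3 ranges did not overlap on this TMM scale, with WT normoxia highest and KO cells lowest. The ranges of hypoxia and WT normoxia lay close, at up to 1553 and from 1584 CPM. Whether they stay apart when scaled by the library sum alone was not tested. The KO libraries were the closest to each other, with an SD of 13.6 CPM against 36.8 and 62.6 CPM. In KO cells 14 of the 17 were lower by the adjusted p-value alone, where 15.4% of all genes were. The libraries of each of these 14 did not overlap with those of WT normoxia, where 18.4% of all genes tested were lower without overlap. Over all 17 the median log2 fold change was -0.33, with a range from -0.77 to 0.25, and 0 were higher by the adjusted p-value.

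On the branch from HMG-CoA to squalene, HMGCS1, which makes HMG-CoA, was at 99.2, 93.0, 95.1 and 92.2 CPM in the WT normoxia libraries, at 65.3, 71.8, 65.7 and 63.9 CPM in hypoxia, and at 59.2, 60.6, 55.5 and 58.0 CPM in KO cells. Every hypoxia and every KO library was below every WT normoxia library, and the KO libraries were all below the hypoxia libraries. Against WT normoxia HMGCS1 (chr5:43289395-43313512 on GRCh38) was 1.58-fold lower in KO cells, at -0.66 ± 0.04 on the log2 scale (SE) with an edgeR adjusted p of 2.91e-07. In hypoxia it was at -0.48 ± 0.05 with an adjusted p of 2.16e-04, under the fold threshold, and it would be called there without hypoxia replicate 2, at -0.52.

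IDI1, the isomerase that interconverts the isoprene building blocks (chr10:1039152-1049170), had the lowest value of the sterol enzymes in KO cells. It was at 150, 155, 148 and 140 CPM in WT normoxia, at 104, 125, 102 and 105 CPM in hypoxia, and at 93.6, 85.7, 80.4 and 79.7 CPM in KO cells. The groups did not overlap, and hypoxia replicate 2 stood above the other hypoxia libraries. The log2 fold change was -0.77 ± 0.05 in KO cells, or 1.70-fold lower (edgeR adjusted p = 5.21e-07), and -0.42 ± 0.07 in hypoxia (adjusted p = 1.82e-03).

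FDPS, which joins the isoprene units into farnesyl diphosphate (chr1:155308748-155320666), was at 261, 291, 287 and 273 CPM in WT normoxia, at 286, 331, 281 and 316 CPM in hypoxia, and at 205, 213, 227 and 212 CPM in KO cells. The KO libraries were below all others, while the 2 WT groups overlapped. In KO cells FDPS was at -0.33 ± 0.05 (edgeR adjusted p = 2.17e-04), and in hypoxia at 0.16 ± 0.06 (adjusted p = 0.112). Of the other 4 enzymes of this branch, MVK and MVD, a kinase and a decarboxylase of mevalonate, and FDFT1, the squalene synthase, were lower in KO cells by the adjusted p-value alone, at -0.18, -0.27 and -0.37. PMVK, the phosphomevalonate kinase, was at -0.08 there with an adjusted p of 0.626 by edgeR, and the 4 had values between -0.13 and 0.11 in hypoxia, none past the adjusted p-value.

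Beyond squalene, CYP51A1, the oxygen-consuming lanosterol demethylase (chr7:92112151-92134803), was the enzyme called. It was at 133, 134, 129 and 124 CPM in WT normoxia, at 108, 113, 102 and 92.9 CPM in hypoxia, and at 93.5, 92.0, 79.9 and 85.9 CPM in KO cells. The WT normoxia libraries were above all others, and the hypoxia and KO ranges overlapped, with KO replicate 1 above hypoxia replicate 4. CYP51A1 was 1.44-fold lower in KO cells, at -0.52 ± 0.05 (edgeR adjusted p = 1.19e-05), which was -0.48 and under the fold threshold without KO replicate 3. It shares 2844 exon bases with AC000120.2 on the same strand, which was at no more than 0.0165 CPM on average in any group.

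Of the other 9 enzymes of this branch, 7 were lower in KO cells by the adjusted p-value alone, where 15.4% of all genes were. They were SQLE (squalene epoxidase) at -0.48, MSMO1 (methylsterol monooxygenase) at -0.39, NSDHL and HSD17B7 (which act after it in removing methyl groups) at -0.31 and -0.35, EBP (a sterol isomerase) at -0.24, SC5D (a sterol desaturase) at -0.35 and DHCR7 (which reduces the last intermediate to cholesterol) at -0.33. SQLE was close to the fold threshold and would be called with no filter on low counts, at -0.50, or without KO replicate 1, at -0.51. The remaining members were LSS, the lanosterol synthase, at -0.04 ± 0.06 (edgeR adjusted p = 0.646), and TM7SF2, a sterol reductase, at 0.25 ± 0.09 (adjusted p = 0.0565). TM7SF2 was the only sterol enzyme with a positive value in KO cells, and its libraries ranged from 13.3 to 18.0 CPM in WT normoxia and from 17.1 to 20.4 CPM in KO cells.

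**Figure D2:**
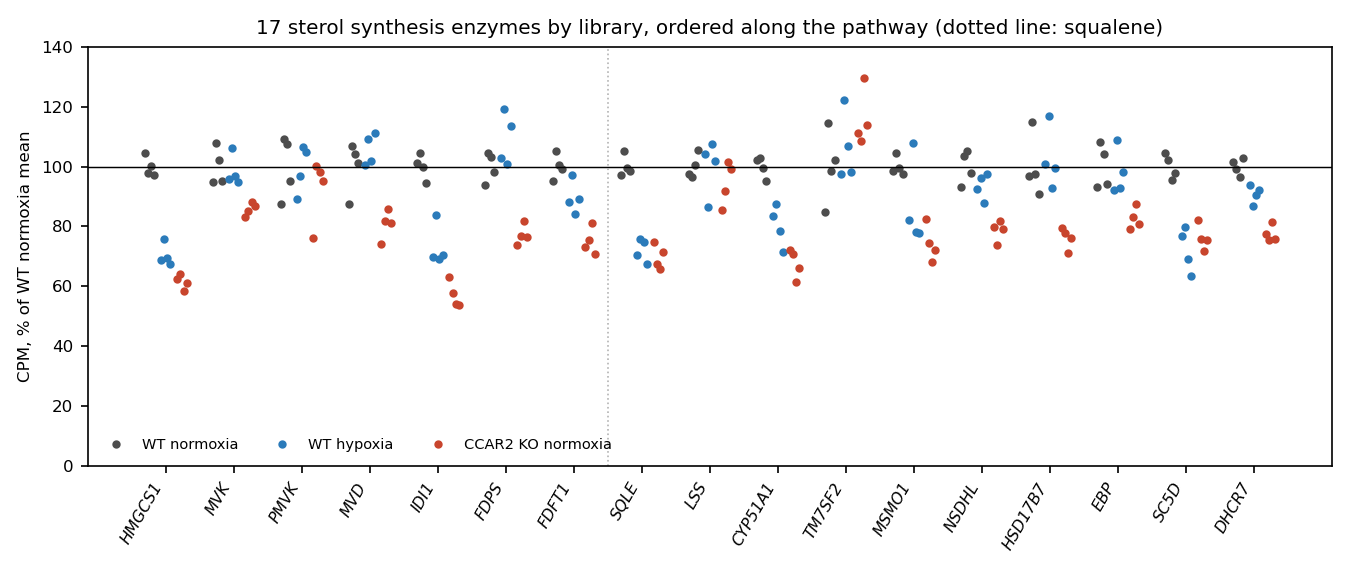
CPM in each library as a percentage of that gene's WT normoxia mean (y axis, from 0) for the 17 sterol synthesis enzymes in pathway order, with the dotted line at squalene; each point is 1 library of WT normoxia (grey), WT hypoxia (blue) or CCAR2 KO (red). The mean of the KO libraries runs from 57.2% for IDI1 to 116% for TM7SF2, and that of the hypoxia libraries from 70.3% for HMGCS1 to 109% for FDPS.

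In hypoxia the sterol enzymes were divided by whether their reaction consumes molecular oxygen, a property taken from known chemistry. Of the 4 oxygen-using sterol enzymes, 3 were lower by the adjusted p-value alone, where 12% of all genes were, namely SQLE at -0.44, SC5D at -0.44 and CYP51A1 at -0.29. MSMO1 was at -0.18 ± 0.10 with an edgeR adjusted p of 0.231, and its hypoxia replicate 2 was at 144 CPM with the other 3 at 104 to 110 CPM. The median of the 4 was -0.36. Of the 13 sterol enzymes that use no oxygen, HMGCS1 and IDI1 were lower, with a median of 0.01 over the 13. These are counts of few genes and the difference between the 2 sets was not tested. Of the oxygen-using members outside sterol synthesis, SCD was at -0.04, FADS1 at -0.05 and FADS2 at 0.19, the last past the adjusted p-value. In KO cells all 4 oxygen-using sterol enzymes were lower by the adjusted p-value alone, where 15.4% of all genes were, with a median of -0.43 against -0.31 for the other 13.

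Among the SREBP regulators, INSIG2, which retains SCAP in the endoplasmic reticulum (chr2:118088452-118110997), was the member called in hypoxia. It was at 21.8, 22.9, 22.6 and 23.5 CPM in WT normoxia, at 38.9, 46.4, 34.6 and 36.4 CPM in hypoxia and at 25.6, 25.1, 23.2 and 24.3 CPM in KO cells. All hypoxia libraries stood above all others, with hypoxia replicate 2 the highest. INSIG2 was 1.76-fold higher in hypoxia, at 0.81 ± 0.09 (edgeR adjusted p = 1.74e-04), between 0.71 and 0.87 when any 1 library was left out. In KO cells it was at 0.15 ± 0.06, with an adjusted p of 0.0601. Its paralog INSIG1, itself an SREBP target, was at -0.18 in hypoxia (adjusted p = 0.0529 by edgeR) and was lower in KO cells, at -0.24 (adjusted p = 1.13e-03), under the fold threshold.

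SREBF1 and SREBF2, which encode the SREBP factors, had opposite signs in KO cells. SREBF1 (chr17:17810399-17837002) was at 103, 110, 109 and 115 CPM in WT normoxia, at 110, 105, 120 and 115 CPM in hypoxia and at 187, 195, 219 and 211 CPM in KO cells. The WT groups overlapped and every KO library was above them. It was 1.90-fold higher in KO cells, at 0.93 ± 0.06 (edgeR adjusted p = 1.86e-07), and at 0.07 ± 0.06 in hypoxia (adjusted p = 0.462). Its transcript isoforms cannot be told apart in a table of genes, and it shares 556 exon bases with RAI1 on the opposite strand, which was at 102, 84.7 and 106 CPM on average in the 3 groups. SREBF2, the factor best known for sterol genes, was lower in KO cells by the adjusted p-value alone, at -0.13 ± 0.04 (0.0327). SCAP, the escort of both factors, was at 0.05 ± 0.04 in KO cells and 0.06 ± 0.05 in hypoxia, with adjusted p-values of 0.303 and 0.359 by edgeR.

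Of the 8 genes of fatty acid synthesis, 1 was called higher in KO cells and 0 lower, where 6.73% and 2.94% of all genes were. Their median was 0.09. SCD, the desaturase that makes monounsaturated fatty acids (chr10:100347124-100364834), was at 400, 374, 365 and 406 CPM in WT normoxia, at 399, 342, 375 and 354 CPM in hypoxia and at 577, 541, 562 and 576 CPM in KO cells. The KO libraries were apart from the WT libraries, whose 2 groups overlapped. SCD was 1.50-fold higher in KO cells, at 0.59 ± 0.05 (edgeR adjusted p = 1.65e-06). In hypoxia it was at -0.04 ± 0.06, with an adjusted p of 0.696.

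None of the other 7 fatty acid genes was called. FASN, the fatty acid synthase, was at 0.10 ± 0.06 in KO cells, ACACA, which makes malonyl-CoA, at 0.18 ± 0.07, and ACLY, which makes cytosolic acetyl-CoA from citrate, at -0.07 ± 0.05, with edgeR adjusted p-values of 0.305, 0.0575 and 0.282. FADS1, a front-end desaturase, was lower by the adjusted p-value alone, at -0.13, and its neighbour FADS2 was at 0.13 with an adjusted p of 0.0550. The exons of these genes share 490 bases on opposite strands. In hypoxia ACSS2, which makes acetyl-CoA from acetate, was higher by the adjusted p-value alone, at 0.46 ± 0.07 (edgeR adjusted p = 9.05e-04), and its 4 hypoxia libraries (40.3 to 42.8 CPM) lay above those of WT normoxia (27.2 to 32.7 CPM). ELOVL6, an elongase of long-chain fatty acids, was lower in hypoxia at -0.33 ± 0.05 (edgeR adjusted p = 1.19e-03) and at -0.01 ± 0.05 in KO cells.

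**Figure D3:**
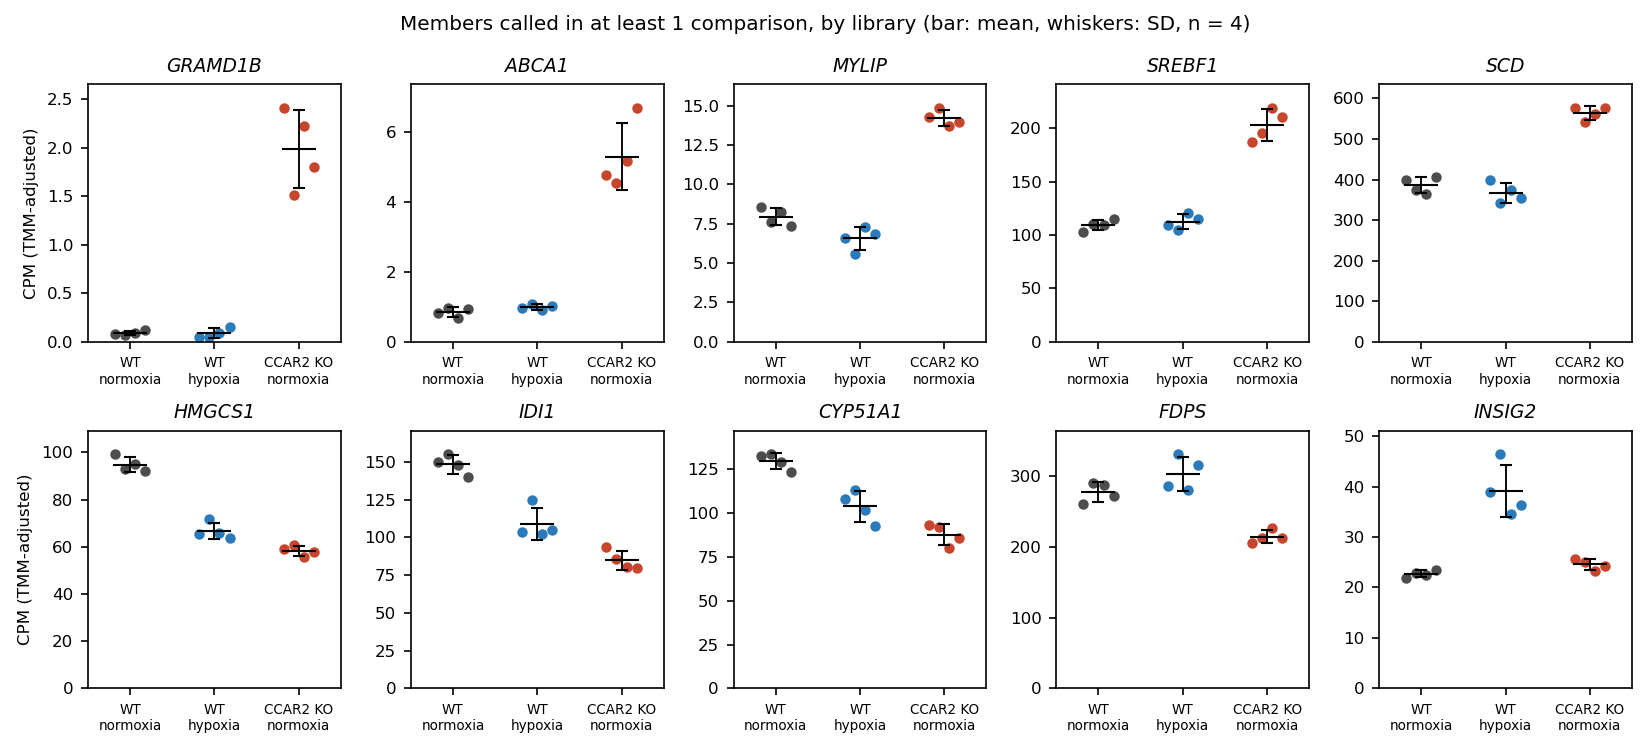
CPM (y axes, from 0) of the 10 members called in at least 1 comparison, by library and group; points are libraries, bars the mean and whiskers the SD (n = 4). GRAMD1B, ABCA1, MYLIP, SREBF1 and SCD have all KO libraries above all WT libraries, HMGCS1, IDI1 and FDPS have all KO libraries below all WT libraries, and INSIG2 stands apart in hypoxia.

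Of the 3 LXR targets, 2 were called higher in KO cells, where 6.73% of all genes were, and the third was close to 0 counts. ABCA1, the exporter that loads cholesterol onto apolipoproteins (chr9:104781002-104928237), was at 0.815, 0.956, 0.673 and 0.9504 CPM in WT normoxia, at 0.959, 1.09, 0.901 and 1.02 CPM in hypoxia and at 4.79, 4.54, 5.19 and 6.69 CPM in KO cells. The WT groups overlapped and the KO libraries were well apart from both. ABCA1 was 6.43-fold higher in KO cells, at 2.68 ± 0.16 on the log2 scale (edgeR adjusted p = 1.86e-07), the 55th highest of the 21410 genes tested. In hypoxia it was at 0.25 ± 0.18, with an adjusted p of 0.349.

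MYLIP, the ubiquitin ligase that directs the LDL receptor to degradation (chr6:16129125-16148248), was at 8.57, 7.60, 8.27 and 7.39 CPM in WT normoxia, at 6.61, 5.56, 7.31 and 6.82 CPM in hypoxia and at 14.3, 14.9, 13.7 and 14.0 CPM in KO cells. The hypoxia libraries were below and the KO libraries above those of WT normoxia. The log2 fold change was 0.88 ± 0.07 in KO cells (edgeR adjusted p = 2.11e-06) and -0.24 ± 0.10 in hypoxia (adjusted p = 0.09997).

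ABCG1, which exports cholesterol to lipoprotein particles, was close to the limit of counting. Its deposited counts were 0, 0, 2 and 0 in WT normoxia, 0, 0, 0 and 16 in hypoxia and 0, 11, 35 and 19 in KO cells. It passed the filter on low counts only in the comparison of KO with hypoxia, where its edgeR adjusted p was 0.183. Against WT normoxia it was called higher in KO cells with no filter on low counts (edgeR adjusted p = 0.0160) and with all 12 libraries in 1 fit (0.0246), while DESeq2 gave it no adjusted p. Counts came from 3 of 4 KO libraries and from 1 library of each WT group, and a fold is not given because most WT libraries were at 0.

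The sterol carriers differed from each other. GRAMD1B, 1 of 3 related proteins that move cholesterol from the plasma membrane to the endoplasmic reticulum (chr11:123358428-123627774), was at 0.0797, 0.0740, 0.0878 and 0.125 CPM in WT normoxia, at 0.0511, 0.0482, 0.0907 and 0.157 CPM in hypoxia and at 2.41, 1.52, 2.22 and 1.80 CPM in KO cells. In deposited counts these were 13 to 19, 4 to 31 and 108 to 346 per library, so that the 2 WT groups were near the limit of counting and overlapped, while KO cells were far above. GRAMD1B was 22.3-fold higher in KO cells, at 4.48 ± 0.24 on the log2 scale with a 95% interval that began at 3.96 (edgeR adjusted p = 6.72e-08), the 7th highest of 21410 genes. In hypoxia it was at 0.01 ± 0.49, with an interval from -1.07 to 1.08, so that a change of up to about 1 on the log2 scale was not detectable at this depth.

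The paralogs GRAMD1A and GRAMD1C were called in no comparison. GRAMD1A was at 70.1 ± 2.16 CPM in WT normoxia and 73.6 ± 2.92 CPM in KO cells (n = 4 each), a log2 fold change of 0.11 with a 95% interval from 0.02 to 0.20 and an edgeR adjusted p of 0.0727. GRAMD1C was at 4.70 ± 0.158 and 4.85 ± 0.493 CPM, a change of 0.09 with an interval from -0.13 to 0.30. Only in hypoxia did GRAMD1C pass the adjusted p-value, at 0.32 ± 0.10 (0.0375). STARD4, a soluble sterol carrier and SREBP target, was lower by the adjusted p-value alone in both, at -0.27 in KO cells (edgeR adjusted p = 1.82e-03) and -0.19 in hypoxia (0.0250).

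The genes around GRAMD1B were examined to show whether its neighbourhood moved. Of 44 genes annotated by GENCODE 29 within 500 kb, 7 could be tested in KO cells against WT normoxia. Of these 0 were called, where 9.67% of all genes were called in either direction. By the adjusted p-value alone 3 passed, where 14.9% of all genes passed as higher and 15.4% as lower, among them CLMP at 0.35 ± 0.06 and ZNF202 at -0.24 ± 0.06, with edgeR adjusted p-values of 7.37e-04 and 7.32e-03. The other was HSPA8, the most abundant neighbour at 1901 CPM in WT normoxia, which was at -0.32 ± 0.05 (edgeR adjusted p = 3.49e-04). In KO cells against WT hypoxia, CLMP was called higher at 0.57.

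CCAR2 KO and WT hypoxia were then compared directly, which is the test of whether the groups differed from each other. KO cells had 5 members higher than hypoxia, where 7.08% of the 21158 genes tested were called higher, and 2 lower, where 7.88% were (15% in either direction). The 5 were GRAMD1B at 4.38 ± 0.33, ABCA1 at 2.42 ± 0.15, MYLIP at 1.11 ± 0.09, SREBF1 at 0.85 ± 0.06 and SCD at 0.62 ± 0.05, with edgeR adjusted p-values between 4.71e-07 and 7.63e-06. The 2 lower were INSIG2 at -0.67 ± 0.09 (edgeR adjusted p = 1.27e-04) and FDPS at -0.50 ± 0.06 (adjusted p = 9.76e-05). FDPS sat on the fold threshold: it was at -0.49 with DESeq2, and fell under the threshold when hypoxia replicate 2 or 4 or KO replicate 1 or 4 was left out, with values between -0.49 and -0.45.

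Of the 17 sterol enzymes, 11 were lower in KO cells than in hypoxia by the adjusted p-value alone, against 17.8% of all genes, and 0 were higher. Of the 13 that use no oxygen, 10 were lower with a median of -0.25, and of the 4 that use it, CYP51A1 was lower at -0.25. For SQLE and SC5D the difference between KO cells and hypoxia was -0.05 with a 95% interval from -0.18 to 0.08 and 0.08 with an interval from -0.09 to 0.24, so that both groups were lower than WT normoxia by amounts that these libraries did not separate. ACSS2 was lower in KO cells than in hypoxia at -0.38 and ELOVL6 higher at 0.30, both by the adjusted p-value alone.

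Levels were compared between genes as CPM per kilobase of merged exon. In WT normoxia the highest were ACLY at 88.4, FDPS at 74.8, SCD at 72.0, FASN at 66.2 and DHCR7 at 59.2 CPM per kb, and the lowest were MYLIP at 2.62, GRAMD1C at 0.601, ABCA1 at 0.0748, GRAMD1B at 0.00617 and ABCG1 at 0.000398. The members with the highest folds in KO cells thus came from the bottom of this order, and GRAMD1B and ABCA1 stayed in places 36 and 35 of 37 in KO cells, at 0.134 and 0.467 CPM per kb. SCD moved from place 3 to place 1, at 105 CPM per kb, and SREBF1 from place 22 to place 8, at 25.3. FDPS and SCD were 74.8 and 72.0 CPM per kb in WT normoxia with SDs of 3.69 and 3.73, so their order there does not exceed the spread between libraries.

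**Figure D4:**
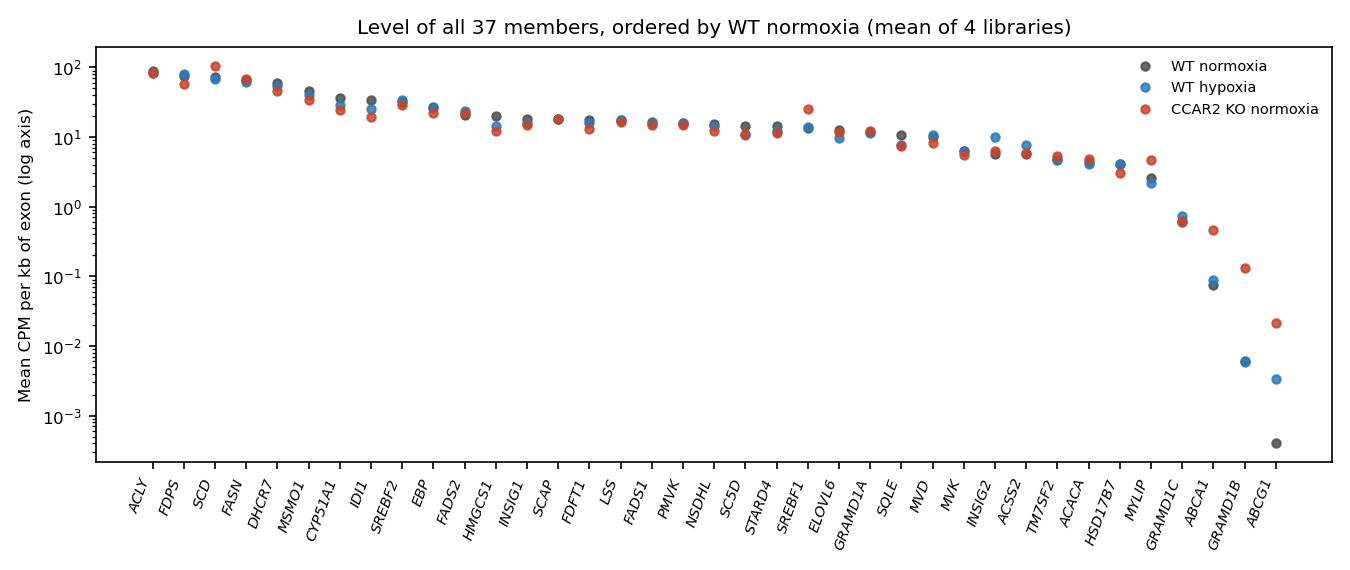
Mean CPM per kilobase of merged exon (y axis, log scale) of all 37 members, ordered by their level in WT normoxia, for the 3 groups (mean of 4 libraries). Most members lie between 1 and 100 in every group, while ABCA1, GRAMD1B and ABCG1 at the right end are the lowest and have the KO points far above the WT points.

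Other genes of the pathway were taken from a list of 49 companion genes, of which 48 could be tested. In KO cells 6 were called higher and 3 lower, where 6.73% and 2.94% of all genes were. By the adjusted p-value alone, 12 were higher and 12 lower there, against 14.9% and 15.4% of all genes. The highest were LPCAT3, a phospholipid remodelling enzyme and LXR target, at 1.13 ± 0.07, PLTP, a phospholipid transfer protein and LXR target, at 0.92 ± 0.22, and GRAMD2B, a GRAM domain protein, at 0.83 ± 0.05, with edgeR adjusted p-values of 1.97e-07, 7.67e-03 and 2.65e-07. The lowest were GRAMD2A at -0.83 ± 0.24, FADS3 at -0.74 ± 0.04 and ACAT2, which condenses acetyl-CoA for sterol synthesis, at -0.53 ± 0.04, with adjusted p-values of 0.0182, 9.85e-08 and 2.02e-06. Among the 5 genes of LXR and its other targets, 3 were called higher in KO cells, LPCAT3, PLTP and NR1H3, which encodes LXRα and was named after its value was seen, the last at 0.69 ± 0.14 (edgeR adjusted p = 2.77e-03). NR1H2, which encodes LXRβ, was at 0.09 ± 0.05 (edgeR adjusted p = 0.194).

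In hypoxia 1 companion was called higher, ACACB, which makes malonyl-CoA at mitochondria, at 0.50 ± 0.12 (edgeR adjusted p = 0.0121), and 1 lower, HACD2, a dehydratase of fatty acid elongation, at -0.52 ± 0.06 (adjusted p = 2.53e-04), where 5.83% and 1.43% of all genes were. By the adjusted p-value alone, 4 of the 48 were higher and 18 lower, against 11.6% and 12% of all genes. Of the 20 tested for fatty acid activation, elongation and desaturation, 3 were higher and 10 lower by it, with a median of -0.17. None of the 5 genes of LXR and its other targets was called there or passed the adjusted p-value. Of the 8 genes of SREBP processing and sterol-regulated degradation, 0 were called in either comparison, and their median was 0.06 in KO cells and -0.10 in hypoxia. By the adjusted p-value alone, 0 of these 8 were higher and 3 lower in hypoxia. In KO cells 2 were higher and 1 lower by it, against 14.9% and 15.4% of all genes. In KO cells against hypoxia 9 companions were called higher and 2 lower, where 7.08% and 7.88% of all genes were, led by LPCAT3 at 1.20, GRAMD2B at 1.17 and ACSL5, an acyl-CoA synthetase, at 0.93, and with GRAMD2A at -1.32 and FADS3 at -1.19. By the adjusted p-value alone, 19 companions were higher and 11 lower in KO cells than in hypoxia, against 17.1% and 17.8% of all genes.

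Counting limits apply to some members. Use of strand in the counting is not given in the sources used here, so reads of antisense partners cannot be told apart from those of HMGCS1 (703 shared exon bases with AC114947.2), IDI1 (643 with IDI2-AS1) and FDPS (693 with RUSC1-AS1), and these partners were at no more than 5.70 CPM on average in any group. MVK shares 306 exon bases with MMAB on the opposite strand. MMAB was at 26.4, 29.1 and 20.7 CPM on average in WT normoxia, WT hypoxia and KO cells. MVK itself was at 41.4, 40.8 and 35.5 CPM, and the part of MMAB reads in these values was not tested. FDPS and HSD17B7 have pseudogene copies of like sequence, and how shared reads were assigned is not given, so their levels are uncertain.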

How the data were processed

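RNA-seq of 12 MDA-MB-231 libraries was used, with 4 libraries in each of 3 groups taken from the sample labels. The deposited values are estimated counts per gene, whole numbers that the authors did not scale to library size. According to the methods, reads were cleaned and aligned with Hisat2 and quantified with StringTie, while the submitters' processing notes list HISAT2, SAMtools and featureCounts, so which tool gave the values is unclear. A count of 4 was more frequent than a count of 3 or of 5 in every library (12 of 12), and the sums are therefore not read as numbers of reads. The genome build and the use of strand are not given in the sources used here.

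Genes were compared with edgeR 4.0.16 in R 4.3.3 (TMM, filterByExpr, glmQLFit and glmQLFTest) on the 8 libraries of each pair of groups, with Benjamini-Hochberg adjustment over all genes tested. Intervals are the log2 fold change with its standard error and the t quantile of the fit's degrees of freedom. The log2 CPM of single members were also compared by exact permutation, two-sided. Positions, exon lengths and overlaps came from GENCODE 29 on GRCh38 by gene identifier, and promoters from RefSeq. The proteins of the GRAMD1 family were not analysed here.

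The members, the companion genes and the marker lists were chosen with earlier results of these data known. All 37 members are named, values of every library are given for members called in at least 1 comparison, and for ABCG1, which was added after its counts were seen. Of the companions called, at most the 3 highest and 3 lowest per comparison are named. Neighbours of GRAMD1B are those within 500 kb, and of these, values are given for the 3 that passed the adjusted p-value in KO cells.

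Alternatives were DESeq2 1.42.0, limma-voom (limma 3.58.1), RLE and upper-quartile normalization, other filters and thresholds, 1 fit of all 12 libraries, the replicate number as a block, and leaving out each library in turn. No replicate pair was identical.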

Additional observations from a re-analysis of the deposited data

Results flagged for a closer look

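In each group of 4 libraries the gap between the most extreme library and its nearest neighbour was divided by the range of the group, and values above Dixon's critical value at the 95% level are given here. This held for 10 of 111 groups, where chance gives about 5.55. WT hypoxia replicate 2 was the extreme library in 6 of them. It was the lowest for FADS2 (0.885), ACACA (0.862), FADS1 (0.849) and ACLY (0.863), at 245, 42.7, 147 and 371 CPM. It was the highest for IDI1 (0.898) and MSMO1 (0.852), at 125 and 144 CPM. WT normoxia replicate 1 was the lowest for ACSS2 (0.84) and GRAMD1C (0.865), at 27.2 and 4.46 CPM. ABCG1 had a value of 1.0 in WT normoxia, where only replicate 3 had counts, and of 1.0 in WT hypoxia, where only replicate 4 did.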

How the results depend on the processing

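No call changed sign under any alternative run. In WT hypoxia against WT normoxia, members called higher numbered 2 with upper-quartile normalization (ACSS2 was then at 0.51), 4 with the adjusted p-value alone and 0 at a log2 fold change of 1 or more, and members called lower numbered 7 with the adjusted p-value alone. In CCAR2 KO against WT normoxia, 18 were lower with the adjusted p-value alone, and at a log2 fold change of 1 or more 2 were higher and 0 lower. In KO against WT hypoxia, 14 were lower with the adjusted p-value alone, 3 were higher and 0 lower at a log2 fold change of 1 or more, and 1 was lower with DESeq2, limma-voom, RLE normalization and all 12 libraries in one fit, each time because FDPS was just under the fold threshold. With each library left out in turn, the counts ranged from 1 to 1 higher and 0 to 1 lower in hypoxia (1 without hypoxia replicate 2, HMGCS1), from 5 to 6 higher and 2 to 4 lower in KO cells, and from 5 to 6 higher and 1 to 2 lower in KO against hypoxia. The added higher call was ABCG1 both times. It entered in KO cells against WT normoxia when any WT normoxia library or KO replicate 1 was left out, with no filter, and with all 12 libraries in one fit (edgeR adjusted p between 1.39e-03 and 0.0291), and in KO against hypoxia without hypoxia replicate 4. In each of these runs the KO counts of ABCG1 came from the same 3 libraries. Leaving out KO replicate 1 removed the KO library at 0, and a smaller group eases the filter. These runs are therefore not separate support for a change in ABCG1. The lower calls in KO cells moved with SQLE, called without KO replicate 1 or with no filter, and CYP51A1, lost without KO replicate 3.

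The replicate numbers were not treated as pairs. Deviations of same-numbered libraries from their group means correlated between -0.019 and 0.067. With another filter on low counts, the same number correlated best in 13 of 24 comparisons of a library with the 4 libraries of another group. Each pair of groups entered from both sides, so the 24 are not separate comparisons, and the 13 were not tested against chance. This is a hint from the data and not from the design. With a replicate block 1 member was called lower in KO against hypoxia, FDPS being at -0.50 just under the threshold, and the other counts stayed within 1.5 times. The median level of the members was 81.2, 66.7 and 63.8 CPM in the 3 groups and 80.0, 67.0 and 64.4 CPM with RLE. Depth limits GRAMD1B in WT cells and ABCG1.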
